A study of Mus musculus with 2 samples.

Results

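The Slc25 family was described by H3K79me2 peaks in unstimulated bone-marrow-derived macrophages, which are macrophages grown out of mouse bone marrow. Its members were the protein-coding genes whose symbol is Slc25a followed by a number, and 47 of 21938 protein-coding genes of the GENCODE annotation of the mouse genome (GRCm38, the mm10 build of the files) had such a symbol. The cells came from C57BL/6J mice and received no stimulus, and they formed 1 group of 2 biological replicates, each started from 10 ng of DNA and set against the same control experiment. The labels give both replicates 1 donor identifier and record neither sex nor age. Whether separate animals or separate cultures supplied them is not stated, so the spread between the replicates may be technical.

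H3K79me2 is a methylation of histone H3 that the enzyme Dot1l lays down along the first part of transcribed genes, and in ChIP-seq it appears as broad enriched stretches downstream of the start. Slc25 carriers are membrane proteins, nearly all in the inner membrane of the mitochondrion, that exchange nucleotides, phosphate, carboxylates, amino acids, cofactors and metal ions between the matrix and the cytosol. In macrophages, export of citrate and exchange of malate, aspartate and glutamate across this membrane link mitochondrial metabolism to lipid synthesis and to the redox state of the cytosol.

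In all, 4 peak lists were compared. One was called on replicate 1 alone, one on replicate 2 alone, one on the pooled alignments, and one, the replicated list, on the alignments of both replicates. They held 22979, 31577, 26838 and 15559 peaks over 63.5, 114, 106 and 93.2 Mb of genome. Of the 15559 replicated peaks, 15202 had the same start, end and fold in the pooled list, so these 2 lists are not separate measurements. The lists hold no read counts, and the depth of each library is unknown. "Marked" is used for a gene with peaks over 200 bp or more of its first 3 kb, measured from the outermost 5′ end in the annotation and cut short at the gene end. A gene without a peak is a gene where none was called, and the modification may still have been there below the limit of the call. With 1 group there is no contrast between conditions, and all comparisons below are descriptions without a test.

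Of the 47 Slc25a genes, 22 (46.8%) were marked in the replicated list, against 30.3% of all protein-coding genes. They included the phosphate carrier Slc25a3, the ADP/ATP carrier Slc25a4, the oxoglutarate carrier Slc25a11, the NAD carrier Slc25a51, mitoferrin-2 (Slc25a28) and the branched-chain amino acid carrier Slc25a44. In replicate 1's own list 20 members (42.6%) were marked, against 27.2% of all genes, and in replicate 2's own list 28 (59.6%), against 35.6%. The pooled list marked 27 members (57.4%), against 34.3% of all genes. Both replicates' own lists marked 20 members, 42.6%, and 27.2% of all genes. The 20 were the 22 of the replicated list without Slc25a16 and Slc25a53. At the other end, 17 members (36.2%) had no base under a peak anywhere in the gene in any of the 4 lists, against 60.1% of all genes. Among these were the citrate carrier Slc25a1, the carnitine-acylcarnitine carrier Slc25a20 and the testis ADP/ATP carrier Slc25a31.

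The window of a marked member was mostly covered. Over the 22 marked members the covered bases of the first 3 kb ranged from 1433 to 2976 with a median of 2546, beside 2456 over all 6658 marked genes. Every unmarked member had 0 window bases in the replicated list, so none lay near the 200 bp limit. Over the whole gene the marked members had between 1433 and 30006 covered bases with a median of 5122, beside 6118 over all marked genes. The covered share of the gene ran from 2.80% in Slc25a53 to 88.4% in Slc25a51, with a median of 36.1%, beside 33.9%. The authors' fold of the highest peak touching the window, a peak's own value over the control that is used here only to rank genes within a list, ranged from 4.94 to 22.1 in the replicated list. Its median was 10.1, beside 11.9 over all marked genes, and 9 of the 22 members lay at or above that value. Folds differ in level between lists. Over all genes marked in a replicate's own list the median was 7.56 in replicate 1 and 13.4 in replicate 2.

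**Figure D1:**
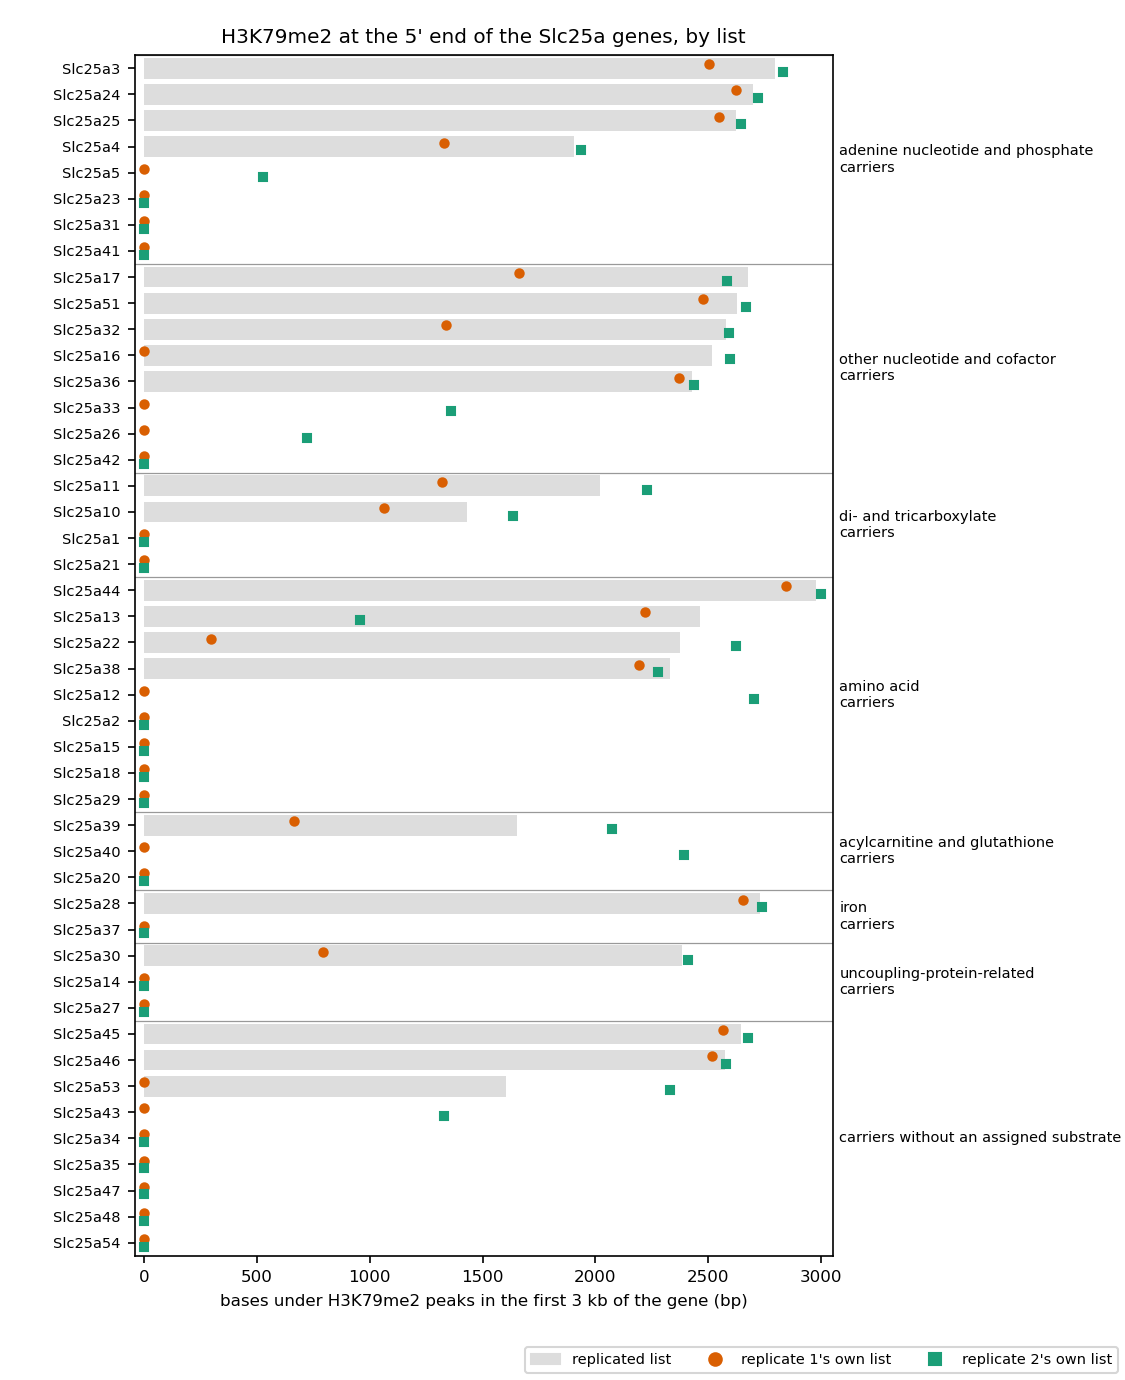
Bases under H3K79me2 peaks in the first 3 kb of the Slc25a genes (horizontal axis, bp), grouped by role, without 1 member that is not shown; bars give the replicated list, circles replicate 1's own list and squares replicate 2's own list. The marked members drawn have bars of 1433 to 2976 bp, while Slc25a5, Slc25a12, Slc25a26, Slc25a33, Slc25a40 and Slc25a43 have a square above 0 and no bar.

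Start sequences of 4 members are printed first as examples, and they do not stand for the marked and the unmarked members as groups. They are from RefSeq on GRCm38.p6, 250 bases before to 50 bases after the RefSeq start, 5′ to 3′ on the gene's strand, with every CpG in capitals. RefSeq held such an entry for 36 of the 47 members. Slc25a45, which had the highest fold of the family in the replicated list and in replicate 2's (in replicate 1's, Slc25a3, Slc25a28 and Slc25a36 were higher), starts at chr19:5877572-5877871 on the plus strand with 7 CpGs. Slc25a28, also among the highest in fold, lies at chr19:43674832-43675131 on the minus strand with 24 CpGs. Slc25a1, with no peak base in any list, lies at chr16:17928170-17928469 on the minus strand with 30 CpGs. Slc25a33, marked in replicate 2's own list and the pooled list alone, lies at chr4:149774218-149774517 on the minus strand with 30 CpGs.
Slc25a45: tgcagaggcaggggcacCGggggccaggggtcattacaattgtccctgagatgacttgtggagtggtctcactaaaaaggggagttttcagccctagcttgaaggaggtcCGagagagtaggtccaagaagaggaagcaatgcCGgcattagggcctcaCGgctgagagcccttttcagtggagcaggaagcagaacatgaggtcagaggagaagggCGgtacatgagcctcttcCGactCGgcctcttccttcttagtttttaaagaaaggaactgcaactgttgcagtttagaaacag
Slc25a28: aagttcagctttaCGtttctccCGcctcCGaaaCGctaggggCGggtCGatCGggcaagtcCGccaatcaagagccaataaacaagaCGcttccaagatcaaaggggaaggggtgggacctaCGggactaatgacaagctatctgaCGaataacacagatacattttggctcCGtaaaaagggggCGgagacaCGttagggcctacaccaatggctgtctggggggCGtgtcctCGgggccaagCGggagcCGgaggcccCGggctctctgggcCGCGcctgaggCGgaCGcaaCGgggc
Slc25a1: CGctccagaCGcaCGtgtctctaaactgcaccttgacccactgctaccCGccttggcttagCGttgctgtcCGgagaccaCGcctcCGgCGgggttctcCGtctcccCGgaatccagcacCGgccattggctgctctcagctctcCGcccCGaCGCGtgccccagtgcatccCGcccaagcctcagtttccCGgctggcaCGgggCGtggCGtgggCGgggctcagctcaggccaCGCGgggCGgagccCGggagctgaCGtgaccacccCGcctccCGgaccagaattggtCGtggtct
Slc25a33: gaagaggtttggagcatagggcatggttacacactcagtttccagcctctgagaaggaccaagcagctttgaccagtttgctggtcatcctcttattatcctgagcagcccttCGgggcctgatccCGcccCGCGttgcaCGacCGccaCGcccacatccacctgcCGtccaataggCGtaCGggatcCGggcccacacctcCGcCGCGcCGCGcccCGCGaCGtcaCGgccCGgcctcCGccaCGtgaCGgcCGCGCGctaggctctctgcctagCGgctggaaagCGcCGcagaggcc

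Slc25a45 thus had fewer CpGs in this stretch than Slc25a1, a member without a peak. Another member without a peak, Slc25a34, had 1 CpG there. CpG-rich starts were those with a GC content of 50% or more and an observed to expected CpG ratio of 0.6 or more over 500 bp to each side. The outermost annotated start was used. By that rule 33 members (70.2%) had a CpG-rich start, against 44.4% of all genes. Slc25a47 was counted as CpG-rich with a ratio of 0.826 at its outermost start. The 300 bases around its RefSeq start, 15083 bp further in, had a ratio of 0.328. Among these 33, 16 (48.5%) were marked, against 54.1% of all CpG-rich genes. Among the 14 other members 6 (42.9%) were marked, against 11.4% of all genes without a CpG-rich start. The 6 were Slc25a13, Slc25a17, Slc25a22, Slc25a24, Slc25a44 and Slc25a45. The observed to expected CpG ratio of Slc25a45 was 0.299. Ratios of the others among these 6 ran from 0.456 at Slc25a22 to 0.554 at Slc25a13, nearer the 0.6 limit. Whether all genes without a CpG-rich start lie as near the limit was not compared. The highest ratio among members was 1.08, at Slc25a25. The median ratio was 0.724 over marked and 0.62 over unmarked members, beside 0.774 over all marked and 0.355 over all unmarked genes.

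**Figure D2:**
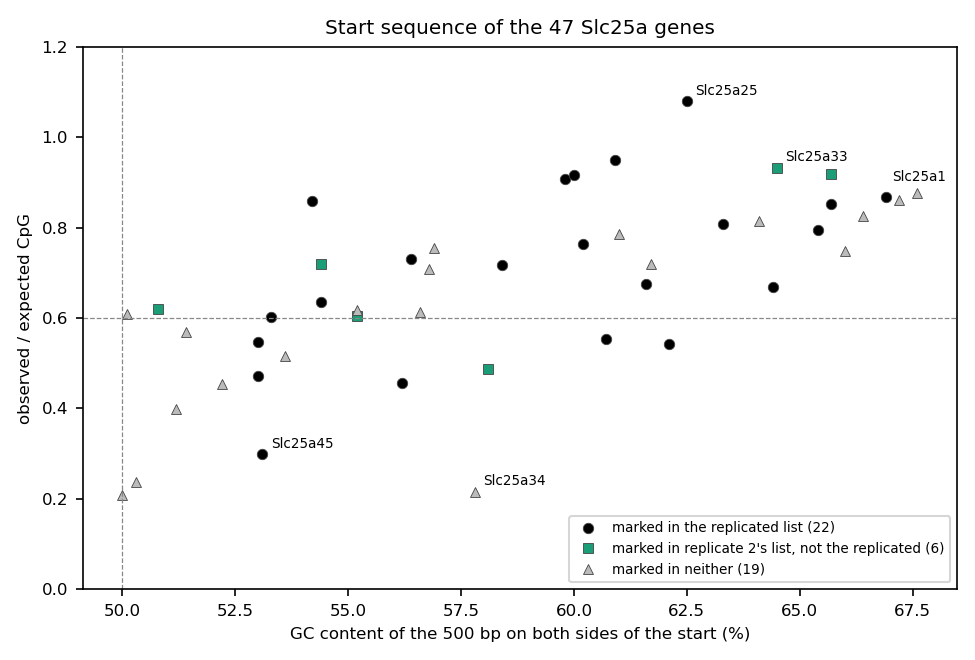
Observed to expected CpG (vertical axis) against GC content in percent (horizontal axis) over the 500 bp on both sides of each of the 47 starts; dashed lines mark the 0.6 and 50% limits. Black circles are the 22 members marked in the replicated list, green squares the 6 marked in replicate 2's own list but not in the replicated list, and grey triangles the 19 marked in neither; all 3 kinds of point lie on both sides of the CpG limit.

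Short motifs were counted on both strands in the stretch from 250 bases before to 50 bases after the outermost GENCODE start. CCGGAAG, the core of ETS factor sites, stood in 6 of 22 marked members (27.3%), 3 of 25 unmarked members (12%), 10.8% of all genes and 21.9% of all marked genes. The 6 were Slc25a3, Slc25a11, Slc25a17, Slc25a25, Slc25a38 and Slc25a46. CACGTG, the E-box, stood in 5 marked members (22.7%) and 6 unmarked members (24%), against 7.75% of all genes and 11.4% of all marked genes. TATAAA stood in 1 member, the marked Slc25a4 (4.55% of marked members), against 12.6% of all genes and 6.80% of all marked genes. GAGGAAGT, bound by the myeloid factor PU.1, stood in 0 of the 47 members, 3.23% of all genes and 3.63% of all marked genes. GCGCNTGCG, the site of NRF1, stood in the marked Slc25a3 and Slc25a51 (9.09% of marked members) and the unmarked Slc25a31, against 8.48% of all genes and 16.4% of all marked genes. The motifs do not overlap each other in letters except that CCGGAAG and GAGGAAGT share GGAAG, and a match is a description of letters, not of binding.

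The carriers of adenine nucleotides and phosphate supply the matrix with ADP and phosphate for ATP synthesis, and 4 of these 8 genes (50%) were marked in the replicated list, against 30.3% of all genes. Slc25a3, the phosphate and copper carrier, had 2504 window bases covered in replicate 1, 2831 in replicate 2 and 2796 in the replicated list. Its fold was 12.7 in replicate 1, 24.3 in replicate 2 and 19.5 in the replicated list, and 70.8% of the gene was covered. Slc25a4, the ADP/ATP carrier of heart and muscle, had 1327 window bases in replicate 1, 1937 in replicate 2 and 1904 in the replicated list, with a fold of 7.29 in the last. The other ADP/ATP carriers were unmarked in the replicated list. Slc25a5, the ADP/ATP carrier of proliferating cells, had 0 window bases in replicate 1 and in the replicated list, 526 in replicate 2 and 448 in the pooled list. Slc25a31, the ADP/ATP carrier of the male germ line, had 0 in every list.

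Slc25a24 and Slc25a25 encode calcium-regulated carriers that exchange ATP-Mg for phosphate, and they had the widest coverage of the nucleotide carriers. Slc25a25 was covered over 28180 bases in replicate 1, 30065 in replicate 2 and 30006 in the replicated list, which is 81.2% of the gene. One peak of it spanned 26922 bp, from 32420342 to 32447263 on chromosome 2, with its summit in intron 1 and a fold of 21.4, which is above the 19.1 of the peak in the first 3 kb. Slc25a24 was covered over 13732 bases in replicate 1, 19701 in replicate 2 and 16664 in the replicated list. Its window fold was 15.7. Their relatives Slc25a23 and Slc25a41 had 0 covered bases in every list. Slc25a25 overlaps Naif1 on the other strand, whose start lies 988 bp away and whose window had 1489 covered bases. The lists hold no strand, so peaks over the stretch that both genes share cannot be assigned to either. That stretch lies at the start of Slc25a25, and the peak of 26922 bp lies outside it.

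Other nucleotide and cofactor carriers were marked in 6 of 9 genes (66.7%) in the replicated list, against 30.3% of all genes. Of these 6, Slc25a16, Slc25a17 and Slc25a32 were no longer marked when only peaks of at least the median fold were kept. Slc25a51, the mitochondrial NAD carrier, was covered over 7179 bases in replicate 1, 11553 in replicate 2 and 11349 in the replicated list. A single peak from 45397047 to 45408395 on chromosome 4 covered 88.4% of this gene, the highest share of the family. Slc25a36, a pyrimidine nucleotide carrier, had 9366 covered bases in replicate 1, 11431 in replicate 2 and 10107 in the replicated list. Its fold of 21.6 ranked 1116 of 6658 marked genes. Slc25a33, the other pyrimidine nucleotide carrier, had 0 covered bases in replicate 1 and in the replicated list, 3911 in replicate 2 and 3642 in the pooled list. The CpG count of its start, printed above, was 30.

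Slc25a32, which carries folate and FAD, had 1339 window bases in replicate 1, 2590 in replicate 2 and 2580 in the replicated list. Slc25a17, a peroxisomal carrier of coenzyme A and FAD, had 1662, 2581 and 2676 window bases in the same order. Slc25a16, linked to coenzyme A transport, had 0 covered bases in replicate 1, 2595 window bases in replicate 2 and 2517 in the replicated list. It was thus marked in the replicated list on peaks called in 1 replicate and in the pool. Slc25a26, the S-adenosylmethionine carrier, had 720 window bases in replicate 2 and 0 in the other 3 lists. Slc25a42, the mitochondrial coenzyme A carrier, had 0 in every list.

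Carriers of di- and tricarboxylates move malate, oxoglutarate and citrate, and 2 of these 4 genes (50%) were marked in the replicated list, against 30.3% of all genes, and the same 2 in each of the other lists. Slc25a11, the oxoglutarate-malate carrier of the malate-aspartate shuttle, had 1322 window bases in replicate 1, 2230 in replicate 2 and 2021 in the replicated list. Its start lies 244 bp from that of Rnf167 on the other strand, the genes overlap, and Rnf167 had 2681 covered window bases. Slc25a10, the dicarboxylate carrier, had 1063, 1635 and 1433 window bases, the lowest value among marked members in the replicated list. Its first covered base lay 1139 bp from the start, the farthest of the marked members. Slc25a1 and Slc25a21, which carry citrate and oxodicarboxylates, had 0 covered bases in every list.

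Amino acid carriers were marked in 4 of 9 cases (44.4%) in the replicated list, against 30.3% of all genes. Slc25a44 had 2845 window bases in replicate 1, 3000 in replicate 2 and 2976 in the replicated list, and its first covered base lay 24 bp from the start, the nearest of the family. Its gene was covered over 7356, 12466 and 10566 bases, which is 72.2% in the replicated list. Slc25a38, the glycine carrier needed for haem synthesis, had 2192, 2277 and 2329 window bases. Slc25a22, a glutamate carrier, had 298 window bases in replicate 1 against 2621 in replicate 2 and 2375 in the replicated list. Its value in replicate 1 was the closest of any member to the 200 bp limit.

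The 2 aspartate-glutamate carriers of the malate-aspartate shuttle differed in the lists. Slc25a13 (citrin), the form of liver and many other tissues, had 2220 window bases in replicate 1, 957 in replicate 2 and 2464 in the replicated list. Over the whole gene it had 13349, 12914 and 18312 covered bases in 7 blocks of the replicated list, which is 10.4% of a gene of 175956 bp. Slc25a12 (aralar), the form of brain and muscle, had 0 covered bases in replicate 1 and in the replicated list, 22168 in replicate 2 and 18293 in the pooled list. In replicate 2 Slc25a12 had 2703 window bases and a window fold of 6.63. The window fold of Slc25a13 in replicate 2 was 2.71, the lowest of the members marked there, and a peak farther in reached 6.9. The other members of this role had no covered base in the replicated list. They were the ornithine carriers Slc25a2 and Slc25a15, the glutamate carrier Slc25a18 and the basic amino acid carrier Slc25a29. Slc25a18 had 40 covered bases in replicate 2, and it overlaps Atp6v1e1 on the other strand, which was covered over 20318 bases.

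Glutathione enters the matrix through Slc25a39 and Slc25a40. Slc25a39 had 666 window bases in replicate 1, 2073 in replicate 2 and 1651 in the replicated list. Slc25a40 had 0 in replicate 1 and in the replicated list, 2394 in replicate 2 and 1791 in the pooled list. Slc25a20 exchanges acylcarnitine for carnitine in fatty acid oxidation, and no base of it was covered in any list.

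The 2 mitoferrins, which bring iron into the matrix for haem and iron-sulfur clusters, were covered in different places. Slc25a28 (mitoferrin-2, the form of most tissues) had 2654 window bases in replicate 1, 2738 in replicate 2 and 2731 in the replicated list, with folds of 13.2, 26.5 and 21.1. Slc25a37 (mitoferrin-1, the form of developing red cells) had 0 window bases in every list. It was nevertheless covered deep inside the gene, over 2268 bases in replicate 1, 3774 in replicate 2 and 3696 in the replicated list. The peaks ran from 69249245 to 69251356 and from 69252769 to 69254352 on chromosome 14, with folds of 5.78 and 6.70. Both summits lay in intron 1, 34537 and 31156 bp from the start, and the first of these peaks also ran over 229 bases of exon sequence. Slc25a37 was the 1 member of 47 (2.13%) that was unmarked and yet had a covered base in the replicated list, against 3.77% of all genes.

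Of the 3 carriers related to uncoupling proteins, 1 (33.3%), Slc25a30, was marked, beside 30.3% of all genes. It had 793 window bases in replicate 1, 2410 in replicate 2 and 2383 in the replicated list, and 7645, 10794 and 10751 bases over the gene. Slc25a14 and Slc25a27, which are known best from brain, had 0 in every list. Of the uncoupling proteins proper, which carry other symbols and were counted separately, Ucp2 was covered over 2408 window bases in replicate 1, 3000 in replicate 2 and 2829 in the replicated list with a fold of 25.4. Ucp1 of brown fat and Ucp3 of muscle had 0.

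Carriers that were given no substrate here were marked in 3 of 9 cases (33.3%) in the replicated list, close to the 30.3% of all genes. Slc25a45 had 2565 window bases in replicate 1, 2675 in replicate 2 and 2643 in the replicated list. Its folds were 12.2, 29.6 and 22.1, and the last ranked 1024 of 6658, the highest of the family, which places it within the top 15.4% of marked genes. The peak ran from 5878165 to 5881534 on chromosome 19 with its summit in intron 1. Slc25a46, an outer-membrane protein of mitochondrial dynamics, had 2514, 2579 and 2574 window bases. Slc25a53 had 0 in replicate 1, 2332 in replicate 2 and 1602 in the replicated list, and its fold of 4.94 was the lowest of the marked members. Slc25a43 had 0 in replicate 1 and in the replicated list, 1327 in replicate 2 and 1219 in the pooled list. Slc25a34, Slc25a35, Slc25a47, Slc25a48 and Slc25a54 had 0 in every list.

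The replicates' own lists marked different numbers of members. Of the members, 8 (17.0%) were marked in replicate 2 and had no window base in replicate 1, against 8.20% of all genes, and 0 were marked in replicate 1 with no window base in replicate 2, against 0.0547% of all genes. The 8 were Slc25a5, Slc25a12, Slc25a16, Slc25a26, Slc25a33, Slc25a40, Slc25a43 and Slc25a53. Of these 8, 5 (Slc25a5, Slc25a12, Slc25a33, Slc25a40 and Slc25a43) were marked in the pooled list with no base in the replicated list, which is 10.6% of members against 3.48% of all genes. The shares of 17.0% and 10.6% are of all members, marked or not, and members were marked more often than all genes. Replicate 2's list marked 59.6% of members and 35.6% of all genes, and the pooled list 57.4% and 34.3%. Of the 8, 3 lie on the X chromosome, which holds 4 members, and none of the 4 was marked in replicate 1. Replicate 1's list marked 125 of all 948 genes on the X chromosome and 5847 of 20807 on autosomes. It marked 20 of the 43 members on autosomes. Among all genes, replicate 2's marked genes lacked a window base in replicate 1 in 75 of 202 cases on the X chromosome (37.1%) and in 1724 of 7606 cases on autosomes (22.7%). Among members the same counts were 3 of 3 on the X chromosome and 5 of 25 on autosomes (20%). Replicate 2's list covers more of the genome than replicate 1's, and the part of that difference in these counts was not tested.

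Where both replicates covered a member, replicate 2's list covered more of it in 20 of 21 members (95.2%), beside 98.2% of all genes covered in both, and the exception was Slc25a13. For marked members the ratio of covered gene bases in replicate 2 to replicate 1 had a median of 1.61 over 20 genes and ran from 0.967 to 5.20, beside a median of 1.63 over all marked genes. The folds of the 28 members marked in replicate 2 ran from 2.71 to 29.6. The 6 that the replicated list left unmarked ran from 3.45 to 6.63 in replicate 2.

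**Figure D3:**
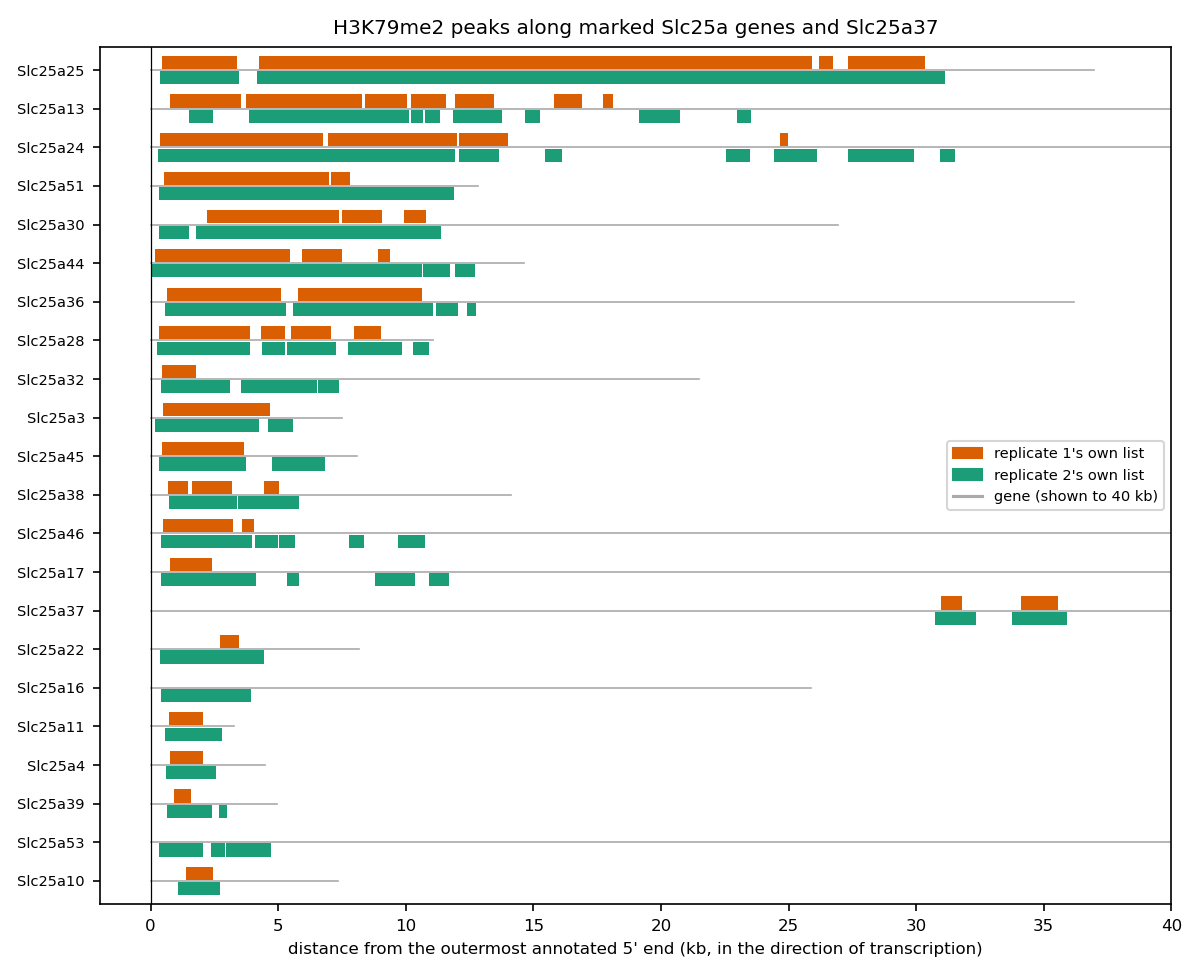
Peaks of each replicate's own list along Slc25a37 and the marked Slc25a genes, 1 of which is not shown (horizontal axis, kb from the outermost 5′ end in the direction of transcription, shown to 40 kb); orange blocks are replicate 1, green blocks replicate 2 and grey lines the gene. The first blocks begin less than 3 kb from the start in the marked members and beyond 30 kb in Slc25a37, and Slc25a16 and Slc25a53 have no orange block.

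Peaks on the family began downstream of the start. In the replicated list the start base itself was covered in 0 members, while 534 of all 6658 marked genes (8.02%) had theirs covered. The first covered base of marked members lay between 24 and 1139 bp from the start with a median of 419 bp, beside 377 bp over all marked genes. On the transcript used, it fell in intron 1 in 16 members (72.7%), beside 52.5% of marked genes with such a transcript, and in exon 1 in others, such as Slc25a11, Slc25a25, Slc25a28, Slc25a44 and Slc25a45. The summit of the highest peak touching the window lay in intron 1 in 20 members (90.9%), beside 73.1%. In Slc25a3 it lay in a later intron. These summits lay 783 to 6339 bp from the start, with a median of 1552 bp and Slc25a13 farthest.

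Averaged over the 22 marked members, coverage in the replicated list rose from 6.05% of bases in the 500 bp before the start to 23.1% in the first 500 bp and 89.0% in the next. In the same bins all marked genes had 8.48%, 34.2% and 77.3%. Coverage of the marked members was highest from 1000 to 1500 bp, at 98.7%, where all marked genes had 89.1%. In the last bin, from 7500 to 8000 bp, 43.4% of bases were covered over the 17 members long enough, against 51.0% of all marked genes. Replicate 1's own list gave 78.2% from 1000 to 1500 bp and replicate 2's gave 94.8%. Over whole transcripts, exons of marked members were covered over 15.0% of their bases and introns over 28.7%, beside 14.6% and 31.0% for all marked genes.

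**Figure D4:**
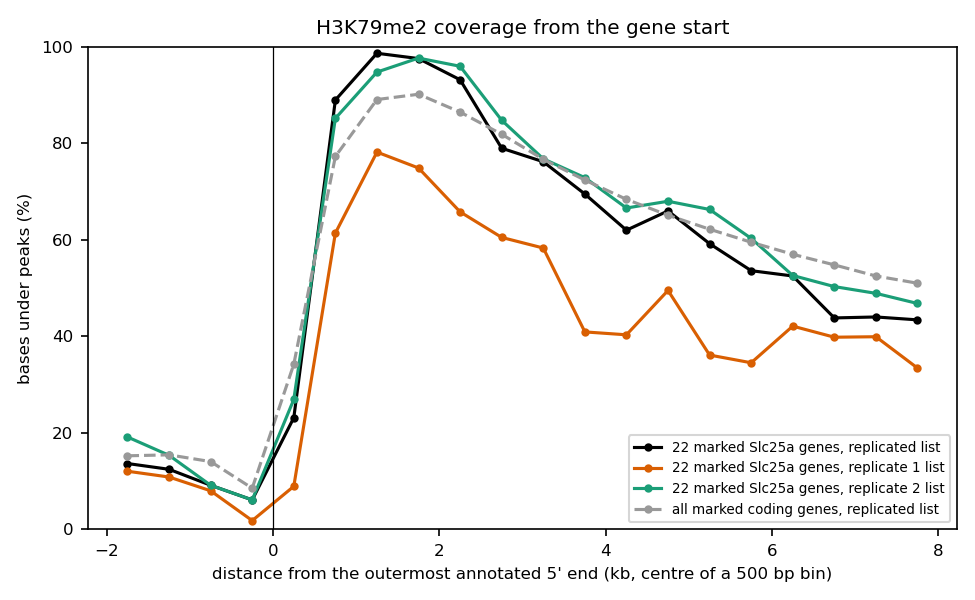
Share of bases under peaks in percent (vertical axis) in 500 bp bins from 2 kb before to 8 kb after the outermost 5′ end (horizontal axis, kb); lines give the 22 marked Slc25a genes in the replicated list (black), replicate 1's list (orange) and replicate 2's list (green), and all marked genes in the replicated list (grey dashes). The black line stands at 23.1% in the first 500 bp and 98.7% from 1000 to 1500 bp.

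Some members share a start region with a neighbour on the other strand, counted as pairs whose starts lie within 1000 bp while the genes do not overlap. The sequence between the starts of a pair is printed on the member's strand for the 2 pairs with a marked gene, with CpGs in capitals. Slc25a32 and Dcaf13 start 149 bp apart, at chr15:39112717-39112864 with the member on the minus strand and 16 CpGs between them. Slc25a40 and Dbf4 start 134 bp apart, at chr5:8422717-8422849 with the member on the plus strand and 23 CpGs between them.
Slc25a32-Dcaf13: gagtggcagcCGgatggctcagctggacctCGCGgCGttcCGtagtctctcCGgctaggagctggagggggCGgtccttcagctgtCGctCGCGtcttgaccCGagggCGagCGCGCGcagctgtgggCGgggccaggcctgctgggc
Slc25a40-Dbf4: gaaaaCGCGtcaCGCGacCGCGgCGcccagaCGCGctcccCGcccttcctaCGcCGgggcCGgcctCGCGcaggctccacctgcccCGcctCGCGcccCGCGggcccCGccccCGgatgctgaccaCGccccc

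Both genes of the first pair were marked, with 2580 window bases at Slc25a32 and 2888 at Dcaf13, a gene of ribosome assembly. In the second pair Dbf4, a regulator of replication origins, had 2147 window bases in replicate 1, 2426 in replicate 2 and 2420 in the replicated list, while Slc25a40 had 0, 2394 and 0. Neither gene of the pair Slc25a27 and Cyp39a1, 211 bp apart, nor of the pair of members Slc25a29 and Slc25a47, 163 bp apart, had a covered base in any list. The last distance holds for the outermost annotated start of Slc25a47, whose RefSeq start lies 15083 bp further in.

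The carriers' import machinery was counted from a list of translocase genes of the outer and inner membrane. In the replicated list 13 of 13 were marked, against 30.3% of all genes. Replicate 1's list marked 8, against 27.2% of all genes, and replicate 2's list 12, against 35.6%. Tomm70a, a receptor that recognises carrier precursors, was covered over 13718 bases, Tomm20 over 12917 and Timm9 over 3597. Agk, named after its values were seen, had 575 window bases in the replicated list and 0 in each replicate's own list. Of 18 gene records of other mitochondrial membrane transporters, of which Nnt has 2, 12 (66.7%) were marked. The calcium uniporter Mcu was covered over 17655 bases and Vdac1 over 13898, while Vdac2, Sfxn2 and Sfxn3 were unmarked in the replicated list. Vdac2 had 0 window bases at its outermost start and 14007 bases further in, and another of its annotated starts was marked. Sfxn3 had 1425 window bases in replicate 2 and 964 in the pooled list. Of 5 genes of the carrier family under other symbols, 3 (Mtch1, Mtch2 and Ucp2) were marked. In the replicated list these lists were read beside the same 30.3% of all genes. They were not matched for start sequence, and 54.1% of all genes with a CpG-rich start were marked.

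Cell identity was checked on marker genes. Of 10 macrophage markers, 9 were marked in the replicated list, against 30.3% of all genes. Adgre1 was covered over 51555 bases, Spi1 over 27653 and Mertk over 18411. Csf1r had 0 window bases at its outermost start and 18778 bases further in. Of 16 markers of T cells, B cells, neutrophils, dendritic cells, red cells and other cell types, 0 were marked and 0 had a covered base in the replicated list, and in replicate 2's list 1, Cd4, had 589 covered window bases. Absence of a peak is common, since 60.1% of all genes had no covered base in any of the 4 lists.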

How the data were processed

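H3K79me2 ChIP-seq of 2 replicates of 1 group was read from peak lists on mm10. Per the deposited text notes, lists were made per replicate, on the pooled alignments and as a replicated list from both replicates, each against the control. The sources used here do not give the aligner, the peak caller or what made a peak replicated. The score the authors gave each peak, at most 1000, was not used. The fold over the control is the authors' ratio and only ranked or filtered peaks within a list. Folds of 1 gene from several lists are printed side by side and are not compared between lists. No result rests on the −log10 p or −log10 q that the authors deposited for each peak. Depth is unknown, so no interval or floor is given.

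Peaks were merged within each list and intersected with GENCODE M21 genes in Python 3.11.15 with pysam 0.24.0. The summits given by the authors were placed on 1 coding transcript per gene. A gene was marked at 200 bp or more of its first 3 kb, and the minimum, the window, the start, the list and the fold were varied. The interval code was tested on simulated stretches and planted genes. Any member may be named, but 1 member and 1 gene of another list are counted and not reported by name here. From each role the 3 marked members with the most covered bases (all where 5 or fewer are marked) have full values, and from other lists up to 3 marked and 3 unmarked genes. Genes outside this rule were named after their values were seen. The family, the role lists and the other lists were chosen with earlier results of these data known. Markers and lists stand as counts beside all genes, without a test.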

Additional observations from a re-analysis of the deposited data

How the results depend on the processing

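The count of 22 marked members kept within 1.5 times of itself under all alternatives run except 1. With the weaker peaks of the replicated list left out (fold under its median, 7.37), 14 members (29.8%) were marked, against 22.3% of all genes. Slc25a4, Slc25a10, Slc25a13, Slc25a16, Slc25a17, Slc25a22, Slc25a32 and Slc25a53 were lost. This setting removes peaks by construction. With 1 replicate left out at a time the count ran from 20 to 28, the share of all genes from 27.2% to 35.6% and the median covered bases of the gene over the 47 members from 0 to 2230. The pooled list gave 27 members and a median of 1791 bases. Minimums of 1, 500 and 1000 bp, any transcript start and a window of 5 kb gave the same 22 members, and a window of 1 kb lost Slc25a10. Among the 37 members that overlap no other coding gene 18 were marked (48.6%, against 28.0% of such genes). Requiring 1000 bp of the window in both replicates' own lists left 16 members (34.0%) in place of 20. The share of all genes at this last setting was not counted. No paired analysis was possible because the samples form 1 group. Depth is unknown, and a member without a peak cannot be told from one below the caller's threshold.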
